A study of Mus musculus with 6 samples.

Results

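Integrins and laminins were described here as the genes whose symbols name an integrin α or β subunit or a laminin α, β or γ chain and whose Ensembl identifiers stood on the gene lists of all 6 samples. The rule gave 32 genes of the 21485 on all lists: 13 integrin α genes, 8 integrin β genes and 11 laminin genes, the last made up of 5 α, 3 β and 3 γ chains. The cells were muscle-derived stem/progenitor cells (MDSPCs) of the mouse, which are slowly adhering cells obtained from dissociated skeletal muscle and kept in culture. The labels tell the samples apart by age group, population name and replicate number. The young populations were Y1-1 (young replicate 1), PtC5 (young 2) and FT-QU (young 3), and the old populations were O1-1 (old 1), NA-f2 (old 2) and NA-f3 (old 3). All 6 were grown in the same serum-containing proliferation medium in flasks coated with collagen type I, and no group carried a treatment. The labels used here give no ages, sex or strain of the mice and do not say whether a population came from 1 animal, so the p-values measure the spread between these populations. Single cells were profiled with droplet-based 3′ sequencing, in which each RNA molecule is tagged with a unique molecular identifier (UMI) and counted once.

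The files held 62849 barcodes, of which 61673 were kept as cells, with medians of 13001 to 19951 UMIs per cell across the samples. Any pair of libraries shared 23 to 35 barcodes, at most 0.369% of a library. Young 1 and old 1 had been counted on a shorter gene list than the other 4 samples. Checked against the label, the summed level of 8 myogenic marker genes ran from 112 to 2521 CPM. CPM are UMI counts relative to the total of each sample, after that total was scaled by a TMM factor. Young 1, young 3 and old 1 were the low ones, at 174, 114 and 112 CPM, and young 2, old 2 and old 3 reached 1369, 869 and 2521 CPM. Pax7, the transcription factor of muscle stem cells, had 5 counts in young 3 and 1327 or more in each of the other 5 samples. Myf5, another gene of the myogenic list, had 1 count in young 1 and 1811 or more in each of the other 5. The sum of 8 fibro-adipogenic markers was 328, 438 and 280 CPM for the young and 203, 455 and 295 CPM for the old populations. It was above the myogenic sum in young 1, young 3 and old 1, where Gsn alone stood at 247, 151 and 135 CPM. Other genes of that list were low in every sample. Pdgfra stayed at 1.88 CPM or less, Dcn at 1.58 CPM or less and Dpt at 0.093 CPM or less, and Lum had at most 1 count. The sum therefore does not show that these 3 populations were fibro-adipogenic. The sum of 4 tenocyte markers was 116 to 291 CPM. The defining endothelial genes Pecam1 and Cdh5 and the leukocyte gene Ptprc each stayed below 1 CPM in every sample. Cd68 of the immune list stood at 1.09 to 8.65 CPM, and Ngfr of the Schwann list at 19.9 CPM in young 2. Tek, another gene of the endothelial list, stood at 59.1 CPM in young 2 and at 0.36 CPM or less in the other 5 samples.

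Integrins are receptors built from 1 α and 1 β subunit that span the cell membrane, bind proteins of the extracellular matrix or of other cells, and link them to the actin cytoskeleton. Laminins are trimers of 1 α, 1 β and 1 γ chain and form the sheet of the basement membrane that surrounds each muscle fibre and covers the stem cells beneath it. In skeletal muscle the integrin of the α7 and β1 subunits and the dystroglycan complex are receptors for laminin that holds the α2 chain, and loss of either the α2 chain or the α7 subunit causes muscle disease. Myogenin, encoded by Myog, is a transcription factor that is switched on when myoblasts begin to differentiate.

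Levels are given as CPM of the UMIs summed over the cells of a sample, scaled with TMM factors, in the order young 1, 2 and 3 and then old 1, 2 and 3. Because a molecule is counted once by its 3′ end, these levels were not divided by transcript length. Capture can differ between genes, and the handling of intronic reads is not given in the sources used here. An effect of gene length on levels between genes was not tested. The 13 members with a mean of 10 CPM or more were 5 integrin α genes, 3 integrin β genes and 5 laminin genes. The other 19 lay lower, and 8 of them were below 1 CPM in every sample. The plot of levels by sample shows the 13 members of 10 CPM or more and Itgb4.

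**Figure D1:**
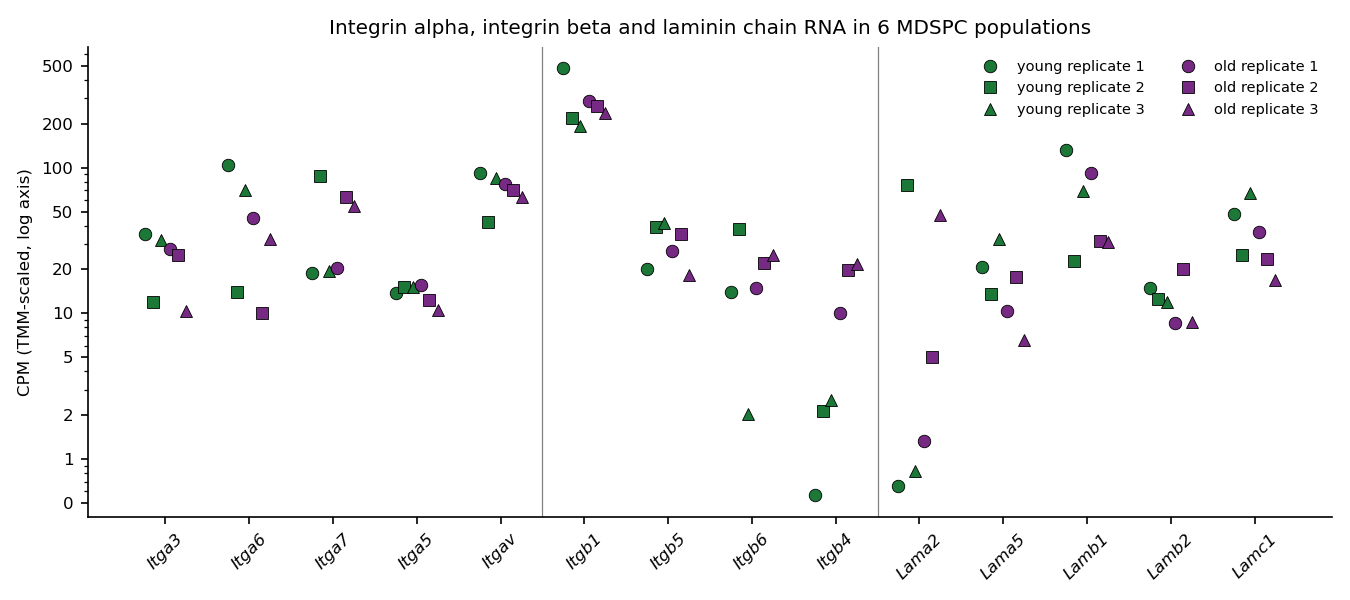
Level of 14 integrin and laminin genes in each sample, in TMM-scaled CPM on a log axis, with 1 point per sample, coloured by age group and shaped by replicate number, and vertical lines between integrin α, integrin β and laminin genes. Itgb1 lies at the top at 193 to 480 CPM, and Lama2 has the widest range, from 0.65 to 76.3 CPM.

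The α subunits that bind laminin are those of Itga3, Itga6 and Itga7. The sum of the 3 genes was 158, 114 and 121 CPM for the young and 93.3, 98.3 and 97.0 CPM for the old populations. Each old sum lay below each young sum, and the sum was not tested. Among single genes the age groups did not overlap, in either direction, for 6.05%. The composition of the sum differed between populations. Itga6, whose product forms a receptor for most laminins with β1 or β4, stood at 104, 13.9 and 69.9 CPM for the young and 45.3, 10.0 and 32.3 CPM for the old populations. It was highest in young 1 and young 3 and lowest in young 2 and old 2, and the age groups overlapped. Itga7, the laminin receptor subunit typical of muscle, stood at 18.8, 87.7 and 19.4 CPM for the young and 20.4, 63.3 and 54.3 CPM for the old populations. Young 2, old 2 and old 3 were well above the other 3 samples, so that the samples low in Itga7 were the samples low in myogenic markers. Itga3, which forms a receptor for laminins with the α3 or α5 chain, stood at 35.0, 11.9 and 32.1 CPM for the young and 27.6, 25.0 and 10.4 CPM for the old populations. Its lowest values were those of young 2 and old 3. As a share of all integrin α UMIs, Itga7 made up 7.0% to 49.0% and Itga6 5.4% to 38.8%.

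The RGD-binding α subunits recognise the tripeptide Arg-Gly-Asp in fibronectin, vitronectin and latent TGF-β. Of these, Itgav stood at 92.5, 42.3 and 85.5 CPM for the young and 77.6, 69.8 and 62.9 CPM for the old populations, and it was 23.6% to 39.9% of the integrin α UMIs. Young 2 was the lowest and the groups overlapped. Itga5, the α subunit of the main fibronectin receptor, stood at 13.9, 15.2 and 15.2 CPM for the young and 15.7, 12.3 and 10.6 CPM for the old populations. It had the narrowest range among the 13 members of 10 CPM or more, with a highest value 1.49 times the lowest. The other RGD-binding genes were low: Itga8 was at 0.16 to 2.11 CPM and Itga2b, the platelet subunit αIIb, at 1.02 to 3.39 CPM. The 4 collagen-binding subunits Itga1, Itga2, Itga10 and Itga11 summed to 1.93 to 5.72 CPM in these cells, which were grown on collagen type I. Itga4 and Itga9, which bind VCAM1, fibronectin and tenascin among others, summed to 0.12 to 2.45 CPM.

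Among the β subunits, Itgb1 stood at 480, 220 and 193 CPM for the young and 285, 264 and 236 CPM for the old populations. Its product pairs with most of the α subunits named above, and its UMIs were 70.0% to 90.7% of all integrin β UMIs. Young 1 was well above the other 5 samples, which lay close together. Itgb5, a partner of αv, stood at 20.03, 39.3 and 41.8 CPM for the young and 26.6, 34.8 and 18.4 CPM for the old populations. Itgb6, another partner of αv that is known mostly from epithelia as an activator of latent TGF-β, stood at 14.0, 38.0 and 2.03 CPM for the young and 14.8, 22.3 and 25.3 CPM for the old populations. Young 3 had the lowest Itgb6 level and young 2 the highest, so that the old samples lay inside the range of the young ones. Itgb8, a further partner of αv, ranged from 1.63 CPM in old 1 to 28.8 CPM in young 3, and Itgb7, a leukocyte β subunit, from 1.21 CPM in old 3 to 32.4 CPM in old 1. Itgb3 did not pass 2.40 CPM.

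**Figure D2:**
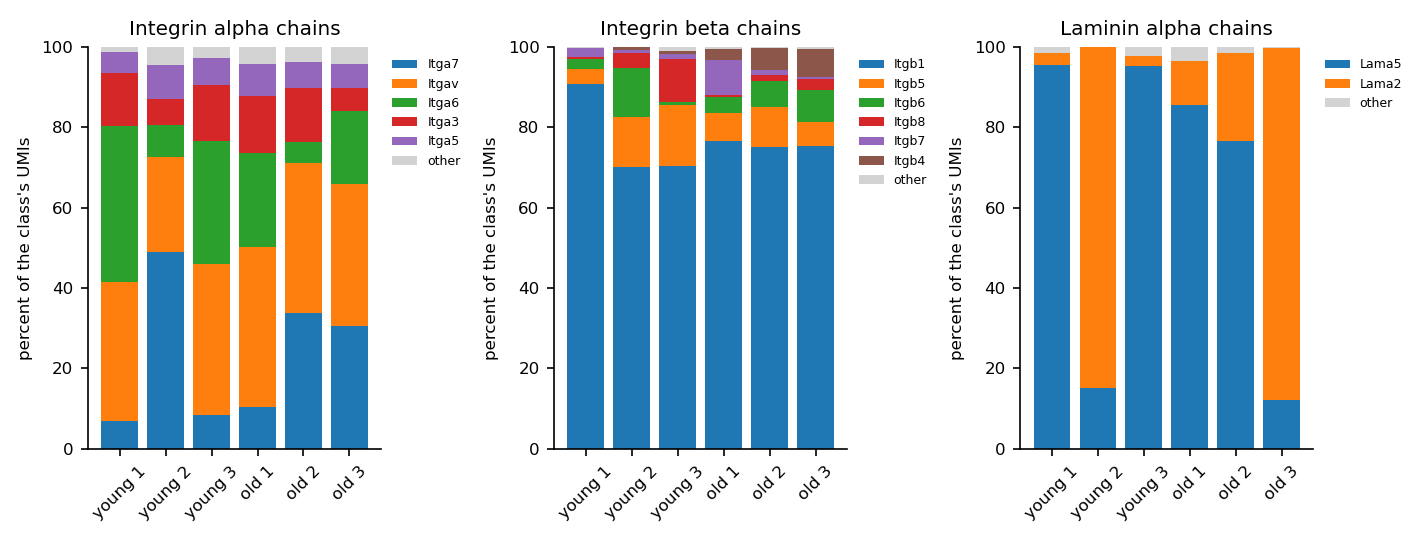
Share of the UMIs of integrin α, integrin β and laminin α genes taken by each gene, in percent, with 1 bar per sample and genes that stay under 5% in every sample joined as other. Itgb1 holds 70.0% to 90.7% of the β UMIs in every sample, while the laminin α share passes from Lama5 to Lama2 in young 2 and old 3.

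Of the laminin α chains, Lama2, the chain of the muscle basement membrane, had the widest range of all members of 10 CPM or more, a highest value 117 times the lowest. It stood at 0.65, 76.3 and 0.83 CPM for the young and 1.34, 5.04 and 47.7 CPM for the old populations. Young 2 and old 3 passed 10 CPM and the other 4 samples did not, so that each age group held 1 high sample. Lama5, a chain found in many basement membranes, stood at 20.7, 13.6 and 32.3 CPM for the young and 10.3, 17.7 and 6.61 CPM for the old populations. Lama5 was 95.5%, 95.3%, 85.5% and 76.7% of the laminin α UMIs in young 1, young 3, old 1 and old 2, against 15.1% in young 2 and 12.1% in old 3, where Lama2 was 84.8% and 87.5%. Lama1, Lama3 and Lama4 had at most 112, 16 and 46 counts in a sample.

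Lamb1 was the leading laminin β chain, at 49.7% to 88.2% of β chain UMIs, and Lamc1 the leading γ chain, at 80.7% to 95.4%. Lamb1 stood at 131, 23.0 and 68.7 CPM for the young and 92.0, 31.1 and 30.7 CPM for the old populations. Lamc1 stood at 48.3, 25.0 and 67.2 CPM for the young and 36.4, 23.6 and 16.8 CPM for the old populations. Both were higher in each of young 1, young 3 and old 1 than in any of young 2, old 2 and old 3, the reverse of the order seen for Itga7. Lamb2, the β chain of neuromuscular and kidney basement membranes, stood at 14.9, 12.6 and 11.9 CPM for the young and 8.53, 20.3 and 8.69 CPM for the old populations. The epithelial chain gene Lamb3 ranged from 1.46 CPM in young 3 to 22.3 CPM in old 3. Lamb3 and Itga7 overlap genes annotated on the other strand (Hsd11b1 and G0s2 for Lamb3, Mettl7b for Itga7). So do Itga6, Itgav, Lama2 and Lamc1 among the members of 10 CPM or more. Lamb3, Itga5, Itga6, Itga7, Lama2, Lama5 and Lamc1 also overlap genes on their own strand. Whether the counting used the strand is not given in the sources used here.

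To ask how the members differed with age, the 3 old populations were compared with the 3 young ones with edgeR's quasi-likelihood test over 14512 genes. None of the 32 members passed an adjusted p of 0.05, and of all genes 1 did, or 0.00689%. At an unadjusted p under 0.05 stood 2 members, Itgb4 and Itgb2, and 512 genes, or 3.53%. DESeq2 called 219 genes (1.51%) and, of the members, Itgb4. The members' median log2 difference was -0.03 and that of all genes tested -0.01. The values of old and young samples did not overlap for 3 members, Itgb4 and Itga9 (old above young) and Itga8 (old below young), and for 6.05% of all genes. For Itga9 the nearest values of the groups were 0.117 CPM in young 3 and 0.119 CPM in old 2.

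Itgb4 encodes the β4 subunit, which pairs with α6 alone to form the laminin receptor of hemidesmosomes, the anchoring structures of epithelia. It had 64, 413 and 524 counts, or 0.57, 2.14 and 2.56 CPM, in the 3 young populations. The old ones had 1700, 3690 and 3788 counts, or 10.1, 19.9 and 22.0 CPM. Each old sample was above each young sample. The means were 1.76 ± 1.05 CPM (SD, n = 3) in the young and 17.3 ± 6.32 CPM (SD, n = 3) in the old. The fitted log2 difference was 3.48 (SE 0.34), with an unadjusted p of 7.5e-05 and an edgeR adjusted p of 0.347, so it was not called. With DESeq2 the same difference, 3.46, had an adjusted p of 8.66e-20. Over 14 alternative settings the log2 difference stayed within 3.15 to 3.64, and of the 14 only DESeq2 passed the threshold.

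Itgb4 was also compared in cells with and without a UMI of Myog. In cells without a Myog UMI the young samples had 0.53, 1.76 and 2.57 CPM and the old samples 10.3, 20.5 and 24.2 CPM. In cells with a Myog UMI the values were 1.67, 3.81 and 2.01 CPM against 15.2, 14.5 and 19.6 CPM. In either class all 3 old samples stood above all 3 young ones. The age difference was smaller in the cells with Myog by a log2 interaction of -0.89 (SE 0.46, unadjusted p = 0.0898 and adjusted p = 1.0 in edgeR), which was not called. Itga6, the partner subunit, did not follow: the order of its levels given above was highest in young 1 and lowest in old 2. The epithelial laminin chain gene Lamb3 also overlapped between the age groups.

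Itgb4 lies on the plus strand of chromosome 11 (GRCm38, chr11:115974709-116008412) and overlaps the gene B230344G16Rik on the other strand, whose reads cannot be told apart from its own unless the counting used the strand. Old 2 stood apart on that chromosome: the median of its 777 genes of 5 CPM or more lay 0.30 higher on the log2 scale than that of all genes, against -0.06 to -0.01 in the other 5 samples. Itga3, Itga2b and Itgb3 lie there too. Old 2 was also raised on chromosomes 5 (0.23), 13 (0.29) and X (0.74), of which 13 holds Itga1 and Itga2, and young 3 on chromosome 6 (0.35), which holds no member, and the other shifts were 0.16 or less. The part of these shifts in the members' levels was not tested. In old 1, old 2 and old 3 the shifts on chromosome 11 were -0.03, 0.30 and -0.04, and Itgb4 stood at 10.1, 19.9 and 22.0 CPM. Galk1, a galactose metabolism gene that lies 45 bp away, stood at 81.5, 51.2 and 68.0 CPM for the young and 77.0, 42.3 and 46.5 CPM for the old populations, and its groups overlapped. The summed level of 5 epithelial marker genes was 0.45, 0.81 and 1.73 CPM for the young and 2.40, 7.54 and 13.4 CPM for the old populations. Of the 5, only Krt18, a keratin, did not overlap between the groups, and none was at 0 in all samples. Krt18 had 5, 1 and 1 counts for the young and 61, 1286 and 2117 counts for the old populations. Without it the other 4 genes summed to 0.41, 0.81 and 1.73 CPM for the young and 2.04, 0.60 and 1.17 CPM for the old populations, so the groups overlapped. The part of epithelial-type cells in the Itgb4 difference was not tested, and in summed samples more cells of a type and more RNA per cell cannot be told apart.

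**Figure D3:**
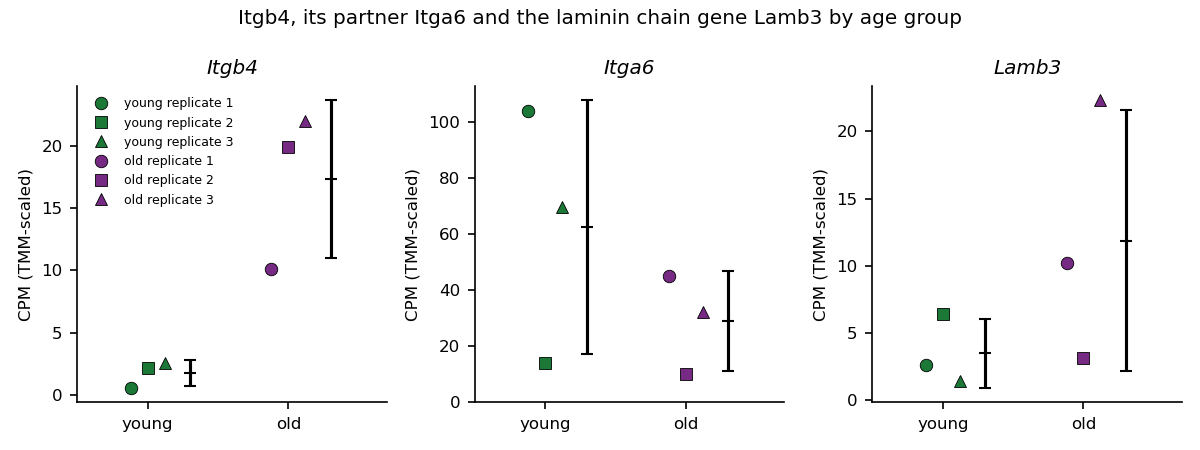
Levels of Itgb4, its partner Itga6 and the epithelial laminin chain gene Lamb3, in TMM-scaled CPM on linear axes, with 1 point per sample, young and old samples side by side, and the mean and SD of each group (n = 3) beside its points. Each old sample lies above each young sample for Itgb4, from 0.57 to 2.56 CPM against 10.1 to 22.0 CPM, and the groups overlap for Itga6 and Lamb3.

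Itgb2, the β subunit of leukocyte integrins, was near the limit of detection, at 15, 4 and 5 counts for the young and 79, 20 and 21 counts for the old populations. The old values of 0.11 and 0.12 CPM in old 2 and old 3 lay below the 0.13 CPM of young 1, so the groups overlapped. Its log2 difference was 2.13 (SE 0.57), with an unadjusted p of 0.0107 and an edgeR adjusted p of 1.0. Ptprc, the pan-leukocyte gene, had 1, 1 and 4 counts for the young and 8, 0 and 6 counts for the old populations. The sum of the 6 immune markers, 1.35 to 9.68 CPM for the young and 1.48 to 4.38 CPM in the old samples, overlapped between the groups.

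The more abundant receptor genes had no difference between age groups that passed the test. The intervals (log2 difference ± 2 SE) show at the least how much was left undetermined. Each SE was derived from the log2 difference and the statistic of edgeR's test, and with so few samples ± 2 SE is too narrow. For Lamc1 the interval ran from -1.80 to -0.059, without 0, at an unadjusted edgeR p of 0.0795. For Itgb1 the log2 difference, old minus young, was -0.06, with an interval from -0.64 to 0.52. For Itgav it was -0.05, with an interval from -0.67 to 0.57, and for Itga7 0.13, with an interval from -0.95 to 1.20. The widest interval among the members of 10 CPM or more was that of Lama2, from -3.15 to 3.05. The estimates of Itgb1, Itgav, Itga7 and Lama2 changed sign on leaving out single samples, and that of Lama2 went from -0.05 to 3.19 without young 2. For the laminin chain genes Lamc1 and Lama5 the estimates were -0.93 (SE 0.44, unadjusted p = 0.0795) and -0.94 (SE 0.49, unadjusted p = 0.108) in edgeR. Without young 3 they were -0.35 and -0.53, and without old 2 that of Lama5 was -1.45.

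To relate the members to the myogenic level inside each population, cells with at least 1 Myog UMI were compared with cells without one, after each cell had been thinned to 5000 UMIs for this assignment. The full counts of either class were then summed per sample, and the sample entered edgeR as a block. The cells with a Myog UMI numbered 295, 2205 and 572 for the young and 64, 1245 and 5550 for the old populations, and the cells without numbered 8149, 8441 and 10059 and 9842, 7265 and 6618. The smallest sum, the Myog cells of old 1, held 901783 counts, so that 1 count there was worth about 1 CPM. Free RNA in the droplets can place a Myog UMI in a cell that does not express it, and its part was not tested. Of the 5 myogenic markers tested, Des (3.38), Myod1 (1.77) and Cdh15 (1.74) were called higher with Myog on the log2 scale. Pax7 (-0.55) and Myf5 (-0.41) were called lower. The gene Itgb1bp2 encodes the muscle-specific β1 integrin binding protein melusin. It was picked as a called gene of this same comparison, so it is no separate check of the classes. It stood at 0.62, 1.55 and 1.83 CPM for the young and 0.68, 1.48 and 1.94 CPM for the old cells without Myog. In the cells with Myog it stood at 69.8, 29.6 and 8.06 CPM and at 40.4, 27.9 and 47.3 CPM, above the cells without Myog in all 6 samples.

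Of the 28 members that passed the filter on low counts, 14 were called, 7 higher and 7 lower in cells with Myog. Of all 13493 genes tested 35.2% were called, 15% higher and 20.2% lower, so that calls were common in this comparison. The members' median log2 difference was -0.16, against -0.06 over all genes. Itgb6, Itga7, Lamb2, Lamb3, Itga2b, Itga9 and Lamc3 were higher, and Itgav, Itga3, Itga2, Itgb5, Itgb7, Lamb1 and Lamc1 were lower. Itga9 was near the limit of detection, with 0, 8 and 4 counts in the Myog cells of the young and 2, 9 and 49 in those of the old populations. It was higher with Myog in 5 samples and lower in young 1. DESeq2 did not call Lamc3 (adjusted p = 0.124) or Itga2 (adjusted p = 0.0789), and Lamc3, at 1.11 CPM or less in every sum, was higher with Myog in 3 samples and lower in the other 3. Lamc3 was also not called without a filter on low counts, with thinned counts or without the cells of highest UMI count. The same held on leaving out young 2, old 2 or old 3. Leaving out old 2 gave 9 called members (23.2% of all genes) and leaving out old 3 gave 8 (23.5%). When Myod1 took the place of Myog, 2 members, Lamc1 and Lamb3, and 4.76% of all genes were called. Among the 12 members no longer called, the log2 differences of Itgb5 (-0.31), Itgb7 (-1.46), Itgav (-0.36), Itga3 (-0.35) and Itga7 (0.66) kept most of their size. Those of Itgb6, Itga2b (0.36), Lamb1, Lamb2 and Itga9 (0.08) were smaller, and that of Lamc3 was -0.14. Itga2, at 3.67 CPM or less in every sum, was -1.98 with 2 or more Myog UMIs and -2.13 without the cells of highest UMI count. Itga2 went from -1.31 to -0.95 with Myod1 and to -0.64 without old 3. It was also not called with the longer gene list only, with thinned counts or without old 2. With cells of 2 or more Myog UMIs, 17 members were called, among them all 14, and 37.2% of all genes. Among cells without UMIs of cell cycle genes Itga2 and Itga9 were not tested, and Lamc3 was not called, at 1.20 (edgeR adjusted p = 0.0566). In that fit 13 members were called, of which 11 were among the 14, and 36.8% of all genes. Old 1 had fewer than 50 such cells and was left out of these last 2 fits. Markers of other cell types also differed between the classes. The sum of the 6 pericyte and smooth muscle markers was 17.8 to 483 CPM without and 840 to 2965 CPM with Myog, with Abcc9 and Acta2 called higher and Pdgfrb lower among 5 tested, while Rgs5 was not called. That of the 4 tenocyte markers was 117 to 279 CPM without and 239 to 384 CPM with Myog, with Scx called higher and Mkx lower. Of 6 fibro-adipogenic markers tested, Smoc2 and Ly6a were called lower, and the sum was 206 to 467 CPM without and 190 to 456 CPM with Myog. Of 2 immune markers tested, Csf1r was called lower. The part of such cells in the members' differences was not tested.

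Among the receptors, Itgb6 had the clearest rise. In cells without Myog it stood at 13.1, 28.7 and 1.57 CPM for the young and 14.9, 15.2 and 10.4 CPM for the old populations. In cells with Myog it stood at 39.4, 77.9 and 9.89 CPM and at 36.4, 64.3 and 44.2 CPM. The Myog cells were higher in 6 of 6 samples, with a log2 difference of 1.87 (SE 0.17, edgeR adjusted p = 0.00053), a 3.65-fold rise. With Myod1 in place of Myog the log2 difference was 0.82 (edgeR adjusted p = 0.10).

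Itga7 stood at 17.5, 80.1 and 19.0 CPM for the young and 20.2, 56.8 and 50.4 CPM for the old cells without Myog. In the cells with Myog it stood at 51.9, 121 and 22.6 CPM and at 98.0, 98.0 and 59.8 CPM. It was higher in all 6 samples, by a log2 difference of 0.90 (SE 0.28) with an edgeR adjusted p of 0.0478. The size of the difference varied between populations, from 50.4 to 59.8 CPM in old 3 and from 20.2 to 98.0 CPM in old 1. The call was close to the threshold and held in 6 of 15 alternatives. One of these, the fit of the 4 samples on the longer gene list, gave a log2 difference of 0.47. It was lost on leaving out any sample other than old 1, with log2 differences between 0.76 and 1.05 in those 5 fits.

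Itgav and Itga3 were lower in cells with Myog. Itgav went from 92.9, 43.1 and 85.4 CPM to 60.6, 38.8 and 72.8 CPM for the young populations and from 79.0, 71.1 and 71.7 CPM to 42.4, 57.0 and 52.4 CPM in the old ones. It was lower in 6 of 6 samples, with a log2 difference of -0.42 (SE 0.09, edgeR adjusted p = 0.00926). Itga3 went from 35.2, 11.8 and 32.2 CPM to 24.6, 12.3 and 25.4 CPM for the young populations and from 28.0, 25.9 and 12.7 CPM to 15.2, 17.7 and 7.70 CPM in the old ones. It was lower in 5 of 6 samples, young 2 being the exception, with a log2 difference of -0.45 (SE 0.11, edgeR adjusted p = 0.0150), and it was not called without old 3, at -0.39. Itgb5 had a smaller difference, -0.31 (SE 0.10, edgeR adjusted p = 0.0391), which was not called on leaving out young 1 or any of the old samples, at sizes from -0.32 to -0.25 in those fits. With the 4 samples of the longer gene list alone, Itga3, Itgb5 and Lamc1 were not called, at -0.39, -0.28 and -0.30. Among cells without UMIs of cell cycle genes the differences of Itga3 and Itgb5 were larger, -0.70 and -0.59, and with 2 or more Myog UMIs that of Itgb5 was -0.54.

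Itgb1 and Itga6 did not pass the test. Itgb1 stood at 481, 213 and 192 CPM for the young and 289, 253 and 240 CPM for the old cells without Myog, against 405, 249 and 184 CPM and 307, 314 and 233 CPM with it. Its log2 difference was 0.05, with an interval from -0.11 to 0.20. That of Itga6 was 0.00, with an interval from -0.23 to 0.24. With Myod1 in place of Myog the estimates were -0.34 for Itgb1 and -0.31 for Itga6. For the receptor genes below 10 CPM, Itga2b rose by 1.00 (SE 0.17) and Itgb7 fell by 1.53 (SE 0.23) on the log2 scale, with edgeR adjusted p values of 0.00336 and 0.00245.

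**Figure D4:**
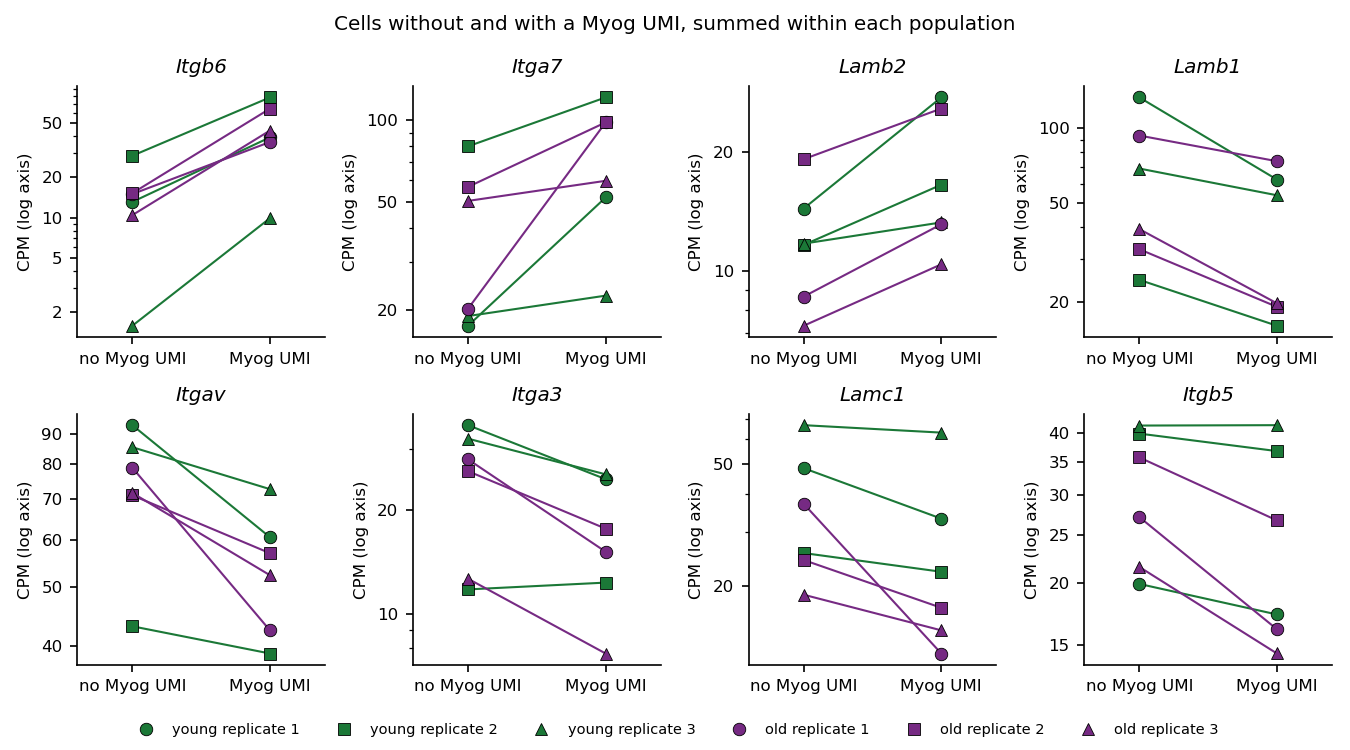
Levels of the 8 called members of 10 CPM or more in cells without and with a Myog UMI, in CPM on log axes, with the 2 values of a sample joined by a line and lines coloured by age group. All 6 lines rise for Itgb6, Itga7 and Lamb2, and all 6 fall for Lamb1, Itgav and Lamc1.

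Among the laminin chains, Lamb1 fell and Lamb2 rose. Lamb1 stood at 133, 24.6 and 68.9 CPM for the young and 93.5, 32.7 and 39.4 CPM for the old cells without Myog. In the cells with Myog it stood at 62.2, 16.1 and 53.8 CPM and at 73.7, 19.2 and 19.8 CPM. It was lower in 6 of 6 samples, with a log2 difference of -0.70 (SE 0.11, edgeR adjusted p = 0.00237). Lamb2 stood at 14.4, 11.7 and 11.7 CPM and at 8.64, 19.1 and 7.30 CPM without Myog, against 27.4, 16.5 and 13.3 CPM and 13.1, 25.6 and 10.4 CPM with it. It was higher in 6 of 6 samples, with a log2 difference of 0.51 (SE 0.10, edgeR adjusted p = 0.00554). With Myod1 in place of Myog the log2 differences were -0.23 for Lamb1 and 0.05 for Lamb2, with edgeR adjusted p values of 0.152 and 0.817, and with 2 or more Myog UMIs that of Lamb1 was -1.06. Lamb1 was above Lamb2 in every cell class of every sample apart from the Myog cells of young 2 and old 2.

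Lamc1 fell by 0.44 (SE 0.14) on the log2 scale with an edgeR adjusted p of 0.0368, lower in 6 of 6 samples, and the gene was not called without young 1, old 2 or old 3, at -0.42, -0.43 and -0.46. Lamb3 stood at 2.55, 4.34 and 1.28 CPM and at 10.0, 2.52 and 19.6 CPM without Myog, against 5.86, 15.3 and 4.30 CPM and 62.6, 6.56 and 26.0 CPM with it. It was higher in all 6 samples, by 1.50 (SE 0.27, edgeR adjusted p = 0.00597) on the log2 scale. Lama2 stood at 0.44, 70.7 and 0.40 CPM and at 1.22, 3.98 and 41.6 CPM without Myog, against 6.14, 101 and 8.42 CPM and 17.2, 11.1 and 55.1 CPM with it. All 6 samples were higher with Myog, yet the ratios were uneven, and the log2 difference of 1.86 (SE 0.73) had an edgeR adjusted p of 0.0991. DESeq2 gave Lama2 an adjusted p of 0.0013. Lama5 had a log2 difference of -0.14, with an interval from -0.45 to 0.16, and one of 0.24 with Myod1 in place of Myog.

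Genes driven by myogenic factors are commonly bound at E-boxes, short motifs of which CAGCTG is the form preferred by MyoD and myogenin. A related form is CAGGTG, which reads as CACCTG on the other strand. The reference table of RefSeq promoters (GRCm38.p6) held 21 of the 32 members, with 24 windows of 250 bases that end at a start site. The members without an entry include Itgb4 and Itga7. CAGCTG, which reads the same on both strands, was found in 6 of the 24 windows (25.0%) and in 13.0% of all 32851 promoters. CAGGTG, searched on both strands, was found in 8 windows (33.3%) and in 17.2% of all promoters. The matches of the motifs did not overlap each other. Shown here are the sequences of Itgb6 and Lamb3, which rose in Myog cells, and of Itgb5, which fell and holds both motifs, with the motifs in capitals. Bases that the annotation places in an untranslated region were left off. The Itgb6 stretch is chr2:60673727-60673943 on the minus strand, the Lamb3 stretch chr1:193301744-193301992 on the plus strand and the Itgb5 stretch chr16:33829415-33829664 on the plus strand, each written 5′ to 3′ along the gene.
Itgb6: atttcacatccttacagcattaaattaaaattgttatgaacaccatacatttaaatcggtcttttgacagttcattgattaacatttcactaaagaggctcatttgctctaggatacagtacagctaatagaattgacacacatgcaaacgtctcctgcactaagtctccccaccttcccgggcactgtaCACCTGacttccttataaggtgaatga
Lamb3: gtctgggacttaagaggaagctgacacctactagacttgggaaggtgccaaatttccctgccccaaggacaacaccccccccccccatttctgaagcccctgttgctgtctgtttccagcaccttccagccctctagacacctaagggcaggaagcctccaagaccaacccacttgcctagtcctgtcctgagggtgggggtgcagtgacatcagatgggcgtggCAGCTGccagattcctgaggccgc
Itgb5: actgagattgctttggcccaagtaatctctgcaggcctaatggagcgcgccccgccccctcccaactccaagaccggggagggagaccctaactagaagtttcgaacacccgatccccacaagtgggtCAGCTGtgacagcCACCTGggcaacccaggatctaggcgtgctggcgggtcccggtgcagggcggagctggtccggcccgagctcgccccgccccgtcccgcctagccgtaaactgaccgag
The Itgb6 and Lamb3 stretches lie inside the annotated spans of these genes, at internal start sites. Both genes have 2 start sites in the table. The window of the other Itgb6 site, at the annotated 5′ end, held neither motif, and that of the other Lamb3 site held CACCTG. Over all windows 11 members had a match: Itgb6, Lamb3, Itga2b and Itga9 among those called higher, Itgb5 and Itga3 among those called lower, and Itga1, Itga4, Itga11, Itgb8 and Lama5 among those not called. A match is only a description of the letters in these windows. The other members in the table had windows with neither motif. They were Lamb2, called higher, Itgav, Lamb1, Itgb7 and Itga2, called lower, and Itgb1, Lama2, Itga5, Itga8 and Itga10, not called.

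Whether the difference between Myog classes itself differed with age was tested as an interaction. edgeR called 0 of 13493 genes and 0 of 28 members, DESeq2 called 6 genes and 0 members, and 389 genes (2.88%) and 2 members had an unadjusted p under 0.05. The members were Itgb5, with an interaction of -0.45 (SE 0.15, unadjusted p = 0.0172) on the log2 scale, and Itga4, with 1.58 (SE 0.59, unadjusted p = 0.0268), both with edgeR adjusted p values of 1.0. Itga4 overlaps the gene Cerkl on the other strand, and its reads have the same limit as those of Itgb4. For Itgb5 the cells with Myog stood at 17.3, 36.8 and 41.5 CPM for the young and 16.2, 26.7 and 14.5 CPM for the old populations, against 19.9, 39.9 and 41.4 CPM and 27.1, 35.7 and 21.5 CPM in cells without. The old samples thus had the larger drops in these values, at a size the test did not call.

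Across populations, the myogenic level was taken as the mean log2(CPM + 1) of Pax7, Myf5, Myod1, Myog and Des. Of these genes, Myf5 was at 0.0088 CPM in young 1 and Pax7 at 0.024 CPM in young 3. The level was 4.11, 7.38 and 3.46 for the young and 4.03, 6.59 and 7.78 for the old populations. The samples thus fell into a low cluster (young 1, young 3 and old 1) and a high cluster (young 2, old 2 and old 3), so no correlation is given, and the slope amounts to a comparison of the clusters. In edgeR's test of that slope 5 of 14507 genes (0.0345%) and no member passed an adjusted p of 0.05, while 2098 genes (14.5%) and 12 members had an unadjusted p under 0.05. DESeq2 called 1128 genes (7.78%) and 9 members.

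The member with the smallest p was Lama2, at 0.65, 0.83 and 1.34 CPM in the low cluster and 76.3, 5.04 and 47.7 CPM in the high one. Its slope was 1.54 (SE 0.22) log2 units per unit of myogenic level, with an edgeR adjusted p of 0.0654. Itga7 had a slope of 0.51 (SE 0.08, edgeR adjusted p = 0.0855). Lamc1 and Lamb1 had negative slopes, -0.36 (SE 0.07, edgeR adjusted p = 0.113) and -0.49 (SE 0.11, edgeR adjusted p = 0.139). Both samples on the shorter gene list, young 1 and old 1, were in the low cluster, and with a term for the gene list the slope of Lamb1 was -0.32. Each of these 4 genes had all values of one cluster above all values of the other. They were named as the members with the lowest p, which favours such a split. The share of all genes with such a split was not counted. Itgb4 had a slope of 0.50 (SE 0.35) with an edgeR adjusted p of 0.546, and Itgb1 one of -0.10 (SE 0.11). The slope of Itgb4 was 0.37 to 0.79 on leaving out 1 sample and 0.32 to 0.60 in the other settings. The clusters also differed in other marker lists: the sum of 6 pericyte and smooth muscle markers, made up mostly of Acta2, was 205, 273 and 25.6 CPM in the low cluster and 700, 331 and 1570 CPM in the high one. Of the defining pericyte genes, Rgs5 was at 0.93, 9.55 and 0.12 CPM in the low cluster and 3.17, 0.50 and 0.24 CPM in the high one, and Kcnj8 had at most 5 counts in a sample. The sum of 4 tenocyte markers, made up mostly of Scx, was 148, 197 and 116 CPM in the low cluster and 283, 291 and 264 CPM in the high one, while Tnmd, the defining tenocyte gene, stayed below 0.03 CPM. The part of such cells in the slopes was not tested.

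**Figure D5:**
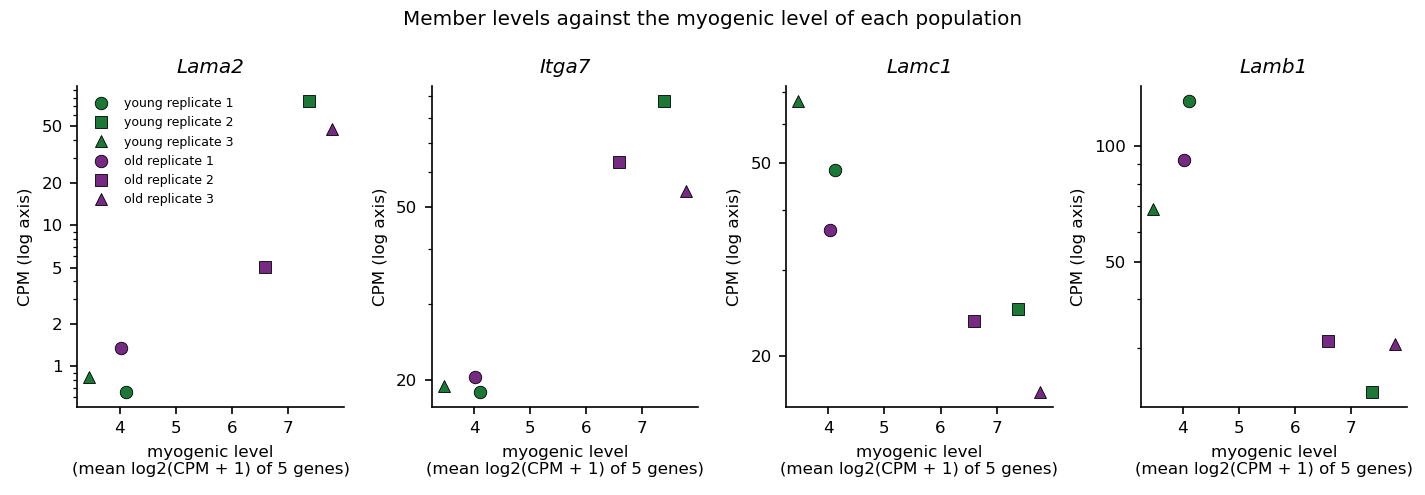
Level of Lama2, Itga7, Lamc1 and Lamb1 in each sample, in CPM on log axes, against the myogenic level of the sample, the mean log2(CPM + 1) of 5 myogenic genes, with points coloured by age group. The samples form a low cluster at 3.46 to 4.11 and a high cluster at 6.59 to 7.78, and Lama2 and Itga7 are higher and Lamb1 and Lamc1 lower in the high cluster.

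The other genes of the pathway were followed in 5 lists, and each gene named from them in the comparison of Myog classes was called by edgeR. In the comparison of old with young none of their genes was called by edgeR, against 0.00689% of all genes. At an unadjusted p under 0.05 stood 2 of 20 integrin adaptors, 0 of 10 membrane partners, 1 of 16 dystroglycan complex genes, 1 of 13 basement membrane partners and 3 of 18 other integrin ligands, against 3.53% of all genes. In cells with Myog, 5 of 19 tested integrin adaptor and signalling genes were higher and 4 lower, against 15% higher and 20.2% lower of all genes tested. Vcl, which encodes the adaptor vinculin, rose by 0.44 (SE 0.08), and Src, the tyrosine kinase, fell by 0.46 (SE 0.08) on the log2 scale, both in 6 of 6 samples. With 2 or more Myog UMIs Src fell by 0.73. Itgb1bp2 rose by 4.56 (SE 0.65).

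In the dystroglycan and dystrophin complex, the other laminin receptor of muscle, 7 of 16 genes tested were higher and 0 lower in cells with Myog, 7 called in all where 35.2% of all genes were called. Dag1, which encodes dystroglycan itself, stood at 49.3, 48.2 and 37.7 CPM for the young and 34.2, 76.8 and 41.4 CPM for the old cells without Myog. With Myog it stood at 119, 131 and 58.4 CPM and at 107, 153 and 91.2 CPM, higher in all 6 samples by 1.18 (SE 0.12, edgeR adjusted p = 0.00057) on the log2 scale. Sgcb, encoding β-sarcoglycan, rose by 0.78 (SE 0.10) on the same scale.

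Among the membrane partners of integrins 2 of 10 were higher and 3 lower (15% and 20.2% of all genes). Cd82, a tetraspanin, rose by 1.02 (SE 0.18), and the tetraspanins Cd9 and Tspan4 fell by 0.51 (SE 0.10) and 0.69 (SE 0.11). With the longer gene list only, Cd9 fell by 0.33. Of 11 basement membrane partners 2 were higher and 3 lower. Nid1, encoding nidogen, which links laminin to collagen type IV, fell by 0.84 (SE 0.10), Ntn4, encoding a laminin-related netrin, fell by 0.88 (SE 0.09), and Hspg2, encoding perlecan, rose by 0.42 (SE 0.09). Hspg2 was not called with the longer gene list only (0.31, edgeR adjusted p = 0.0543), nor was Cd82 in cells without UMIs of cell cycle genes (0.95, edgeR adjusted p = 0.0541). Of 16 genes for other integrin ligands 1 was higher and 5 lower. Tnc, encoding tenascin C, fell by 1.30 (SE 0.19), and Mfge8 and Adam15 fell by 0.44 (SE 0.09) and 0.53 (SE 0.12). In cells without UMIs of cell cycle genes Tnc fell by 2.06 and Mfge8 by 0.67. With 2 or more Myog UMIs Mfge8 fell by 0.70. Each of the 14 genes named from these lists differed in the same direction in all 6 samples. They had been chosen by their p in this comparison, which favours a shared direction. The 35.9% of all genes tested that did so were not chosen in this way, so the 2 shares cannot be compared. With Myod1 in place of Myog, where 4.76% of all genes were called, Itgb1bp2, Dag1, Sgcb and Cd82 were still called, at smaller log2 differences of 1.43, 0.38, 0.62 and 0.90. The other 10 were not called. Of these, Adam15 (-0.48), Cd9 (-0.42), Nid1 (-0.58), Src (-0.31) and Mfge8 (-0.29) kept more of their size than Tspan4 (-0.36), Tnc (-0.36), Ntn4 (-0.21), Hspg2 (-0.070) and Vcl (-0.0071).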

How the data were processed

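The authors deposited a matrix of raw UMI counts per gene and cell barcode for each of the 6 samples, made with Cell Ranger 7.0.0 (young 1 and old 1, 21849 features) or 7.2.0 (the other 4 samples, 32285 features), per the file headers. The build mm10 comes from the submitters' processing notes, and the handling of intronic reads and of strand is not given in the sources used here. Barcodes under 1000 UMIs or 500 genes (967) and those with 15% or more of their UMIs from 13 mitochondrial genes (209) were left out. Doublets were not removed, and the 8% of cells with the highest UMI counts were left out in an alternative chosen after seeing the data. The 21485 shared genes held 98.53% to 99.94% of each sample's UMIs. Counts were summed per sample, or per sample and Myog class in cells of 5000 or more UMIs, which left out 1368 cells. The two-sided quasi-likelihood test of edgeR 4.0.16 (R 4.3.3), with TMM factors, its robust option and the filter filterByExpr, was checked on simulated data and then run on these sums, with Benjamini-Hochberg adjustment over all genes at 0.05. It had terms for gene list and age, for sample and class, for their interaction with age, or for the myogenic level. DESeq2 1.42.0 was an alternative, as were other scaling, filters, classes and leaving out each sample. Members of 10 CPM or more on average were named with all values. Fold changes were given for members in order of p, up to 6 at an unadjusted p under 0.05 by age and up to 12 called by Myog class with a mean of 10 CPM or more. The other members given with a fold change were chosen after their values were seen. Members and lists were chosen with earlier results of these data known. Positions are from GENCODE on GRCm38 and promoters from RefSeq. Pathway list genes were given by counts, and up to 3 called genes of a list, in order of p, by value. 1 member and 1 pathway gene are not reported by name here.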

Additional observations from a re-analysis of the deposited data

Results flagged for a closer look

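The log2 ratio of Lamc1 between cells with and cells without Myog was -1.614 in old 1, far from the other 5 samples, which lay between -0.54 and -0.08. Its gap to the nearest sample was 0.698 of the whole range, above Dixon's critical value for 6 samples. The value rests on 12 counts in the 64 Myog cells of old 1. The ratios of 13 members were examined in this way, and chance marks about 1 in 20.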

How the results depend on the processing

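The log2 differences of the genes named by value were recomputed in each setting that could fit them. Of those whose sign turned, Lamc3, Vcl and Hspg2 had been called and the others had not; the cause was not tested. With Myod1 in place of Myog the estimates were -0.14 for Lamc3, -0.34 for Itgb1, -0.31 for Itga6, 0.24 for Lama5, -0.0071 for Vcl and -0.070 for Hspg2. Without a filter on low counts those of the Myog classes were -0.0079 for Itgb1 and -0.051 for Itga6, and with thinned counts that of Itga6 was -0.060. Leaving out 1 sample gave -0.0019 to 0.10 for Itgb1 and -0.11 to 0.081 for Itga6. By age, the longer list only gave 0.28 for Itgb1 and 0.054 for Itgav, the replicate block 0.0059 for Itgav and 1.01 for Lama2, and leaving out the cells of highest UMI count 0.013 for Lama2. Leaving out 1 sample gave -0.23 to 0.28 for Itgb1, -0.33 to 0.25 for Itgav, -0.29 to 0.93 for Itga7 and -1.14 to 3.19 for Lama2. The slope of Itgb1 was 0.066 with the longer list only, 0.057 with the replicate block, 0.069 with the gene list term and -0.21 to 0.0034 on leaving out 1 sample, and that of Lamb1 was -0.28 with the block. For old against young, edgeR called 0 members in every setting and DESeq2 called 1 member. Of all genes, DESeq2 called 219, while 0 were called without the gene list term and 0 with the longer gene list only, and 0 to 3 on leaving out 1 sample. For cells with against without Myog, 2 members were called with Myod1 in place of Myog and 8 to 13 on leaving out 1 sample. Of all genes, 2995 were called with the longer list only, 642 with Myod1 and 3128 to 4996 on leaving out 1 sample. The difference of classes by age gave 6 genes with DESeq2, 3 with the longer list only and 0 to 2 on leaving out 1 sample. For the slope on the myogenic level, DESeq2 called 9 members and 1128 genes. edgeR called 37 genes without a filter on low counts, 50 with the level taken from Myod1, Myog and Des, 0 with the longer list only, 0 with the gene list term, and 0 to 8 on leaving out 1 sample. With the replicate number as a block, the age comparison called 1 gene and 0 members and the slope 0 genes and 0 members. The deviations of same-numbered samples correlated at 0.40, 0.28 and -0.11, and those of differently numbered ones at -0.48 to 0.33. These values do not settle whether the numbers mark pairs. The numbers are not stated to mark a shared animal, litter or day, so they were not taken as pairs. Except where a value is given here, the cause was not tested; the longer list holds 4 samples and leaves fewer for each fit. The Myog cells of old 1 were few (64), which limits every member below about 10 CPM there.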
